A study of Mus musculus with 20 samples.

Results

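The acute stress arm compared frontal cortex of male Swiss Webster mice after a single aggressive social encounter with that of undisturbed siblings. It was chosen by the label of its arrays and held 5 of the 20 arrays of the series, which covered 3 pools of stressed mice and 3 pools of control mice, with RNA of 3 mice in each pool. The stressed males were put once into the cage of group-housed males aged 4 months and were decapitated 24 h later. Control males were siblings that were housed alone like the stressed mice but were never put into a resident cage, and the groups were kept in adjacent rooms, so that room and stress cannot be told apart. The tissue was a frontal slice with orbital, prelimbic and frontal association cortex. Each array compared 1 stress pool with its sibling control pool in 2 colours. The series holds a second array with the dyes exchanged for pools 2 and 3, but only 1 array of pool 1. By the paper's account, as many dye-swap arrays as original arrays were run. The remaining 15 arrays came from mice stressed for 8 days, for 13 days, or for 13 days followed by 5 days of rest, each group with its own control siblings.

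A social encounter with dominant males raises circulating glucocorticoids, which act in brain through the glucocorticoid and mineralocorticoid receptors on gene transcription in neurons and glia. Prefrontal cortex takes part in the control of fear and of the reaction to threat. Its RNA comes mostly from neurons and glia, among them oligodendrocytes that wrap axons in myelin, and a slice that reaches the surface also carries meninges and vessels. In RNA of whole tissue, fewer cells of a type and less RNA per cell cannot be told apart.

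All values are log2 ratios of stress over control, turned so that a positive value means a higher signal in the stressed pool. They were tested by limma in 12 pools of the 4 time points, and a call required a log2 ratio over 0.5 in size together with an adjusted p below 0.05. Of 39429 probes, 27162 were well above background in at least 1 channel on each of the 5 arrays and were tested. On the 5 arrays, 70.8% to 74.3% of probes were well above background and 0 spots were saturated. The SD of log2 ratios was 0.131 to 0.168 on single arrays. Pool 1, with 1 array, had an SD of 0.168, or 0.15 with the dye effect subtracted. The averaged pools 2 and 3 spread less, at 0.0824 and 0.0938. Across tested probes, the original and the dye-swap array correlated at r = -0.239 in pool 2 and r = -0.312 in pool 3, whereas the original arrays of pools 1 and 2 correlated at 0.511. Arrays of the same dye orientation were thus more alike than arrays of the same pool, and the leading results are given below array by array. Pools of 1 number shared slides and a scan day at each time point. Pool 1 was on slide 1, pool 2 on slides 2 and 3, and pool 3 on slides 4 and 5 with a scan day of its own. A fit with the pool number as a block takes what such pools share out of the residual spread. It leaves the mean log2 ratio of a probe measured in all 12 pools unchanged. A lower adjusted p in that fit thus does not come from a ratio corrected for slide or dye. Neutrophil genes and Col1a1 were far lower on the stress side of pool 1 than in the other pools. Some results are therefore also given without pool 1, and for others only the values by pool are given.

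In all, 5 probes reached an adjusted p under 0.05, and 4 of them are shown by their first 30 bases because the main result rests on them. The bases are those printed for each 60-base probe in the scanner output, 5′ to 3′, in lower case with no part marked, and positions are those of mouse build mm9. Whether a probe lies in an exon or an untranslated part was not determined here.
Mobp, chr9:120085150-120085209: gatttatcctgtctccagttatctggcact
ENSMUST00000103426, chr12:114659630-114659689: tgtggctagtgtttgtgtggaagactggaa
Rprm, chr2:53936668-53936727: tgtgaatggggtaagtgctttcttttagtg
Trf, chr9:103111207-103111266: tcttcgctgctgtgccttaccacatacaca
The probes of Fam107a are added because they gave different answers. The first measured a higher signal after acute stress and the second did not.
Fam107a first probe, chr14:9129295-9129354: tgaggttttatgctgaagatgtgtttccta
Fam107a second probe, chr14:9130274-9130333: attcttcattcactatccatagtgttccca

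Acute stress was followed by a small set of higher transcripts, among them a myelin gene and an immunoglobulin transcript, and no probe was called lower. Of 27162 probes 2, or 0.00736%, were called, both higher, and 5 probes had an adjusted p under 0.05, all 5 higher in the stressed mice. A log2 ratio over 0.5 in each of the 3 pools was found for 2 probes, among them that of Agxt2l1, and 0 probes lay below -0.5 in each pool. At an unadjusted p under 0.05, 729 probes were higher and 738 were lower. With the pool number as a block, 15 probes were higher and 5 lower at an adjusted p under 0.05, where 5 and 0 were without it. The direction was not one-sided in every count. With the dye effect subtracted from pool 1, 7 probes were higher and 6 lower at that level. By size alone, 8 probes had a mean above 0.5 and 35 a mean below -0.5. A limma fit of the 3 acute pools alone called 0 probes, with a lowest adjusted p of 0.303.

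Transcript ENSMUST00000103426, described by the array's annotation as the immunoglobulin heavy constant mu chain, which forms the heavy chain of IgM, had log2 ratios of 0.77 in pool 1, 0.58 and 0.28 on the arrays of pool 2, and 0.45 and 0.50 on those of pool 3. It was higher on 5 of 5 arrays. Its log2 signal was 9.07, 8.75 and 8.79 in the stress pools and 8.30, 8.32 and 8.32 in the control pools, which do not overlap. How many of all probes separate in this way was not counted. This probe, like those of Mobp, Rprm and Agxt2l1 below, was picked for its ratios in these same pools. Over the 3 pools it averaged 0.56 with an SE of 0.0613, a 1.47-fold higher signal (adjusted p by limma 0.00878). Of 8 genes of B cells that were listed after this probe had been seen, 4 were tested, among them Cd79a, Cd74 and Igj with log2 ratios between -0.01 and 0.06, and 0 of the 4 were at an unadjusted p under 0.05. Cd79a and Igj were dim, at mean log2 signals of 7.9 and 7.5, and Cd74 was split by pool, at 0.25, 0.00 and -0.29. These genes thus say little about B cells. Without acute pool 1 the adjusted p of ENSMUST00000103426 was 0.0966 and without acute pool 3 it was 0.107.

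Mobp, which encodes a basic protein of compact central myelin, had log2 ratios of 0.61 in pool 1, 0.59 and 0.22 in pool 2, and 0.86 and 0.07 in pool 3. Every array was above 0, but the dye-swap arrays were lower than the original arrays of the same pools. The mean was 0.49 (SE 0.0528, n = 3 pools, limma adjusted p = 0.00878), just under the limit of 0.5. Its log2 signal was 10.18, 10.13 and 9.85 in the stress pools and 9.57, 9.73 and 9.38 in the control pools, and these did not overlap. The other Mobp probes had mean log2 ratios of 0.33 (adjusted p = 0.0625, and 0.0066 with the pool number as a block) and 0.09 (adjusted p = 0.997), and the latter was the dimmest of the 3. Without pools 1 and 3 in turn, the adjusted p of the first probe was 0.0966 and 0.107.

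Rprm, the Reprimo gene of cell cycle arrest, had log2 ratios of 0.37 in pool 1, 0.23 and 0.39 in pool 2, and 0.54 and 0.41 in pool 3. The mean was 0.39 (SE 0.0508, n = 3 pools, limma adjusted p = 0.0423), and the stress pools, at log2 signals of 10.93, 10.79 and 11.05, lay above the control pools at 10.55, 10.48 and 10.57. Trf, which encodes the iron carrier transferrin that oligodendrocytes make in brain, had log2 ratios of 0.44 in pool 1, 0.42 and 0.32 in pool 2, and 0.51 and 0.30 in pool 3. The mean of Trf was 0.40 (SE 0.0564, n = 3 pools, limma adjusted p = 0.0453). A second Trf probe gave 0.70, 0.37 and 0.26 in the pools with a mean of 0.44 (adjusted p = 0.173, and 0.0139 with the pool number as a block). Both genes were higher on all 5 arrays. Without pools 1, 2 and 3 in turn, the adjusted p of Rprm was 0.306, 0.22 and 0.192.

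**Figure D1:**
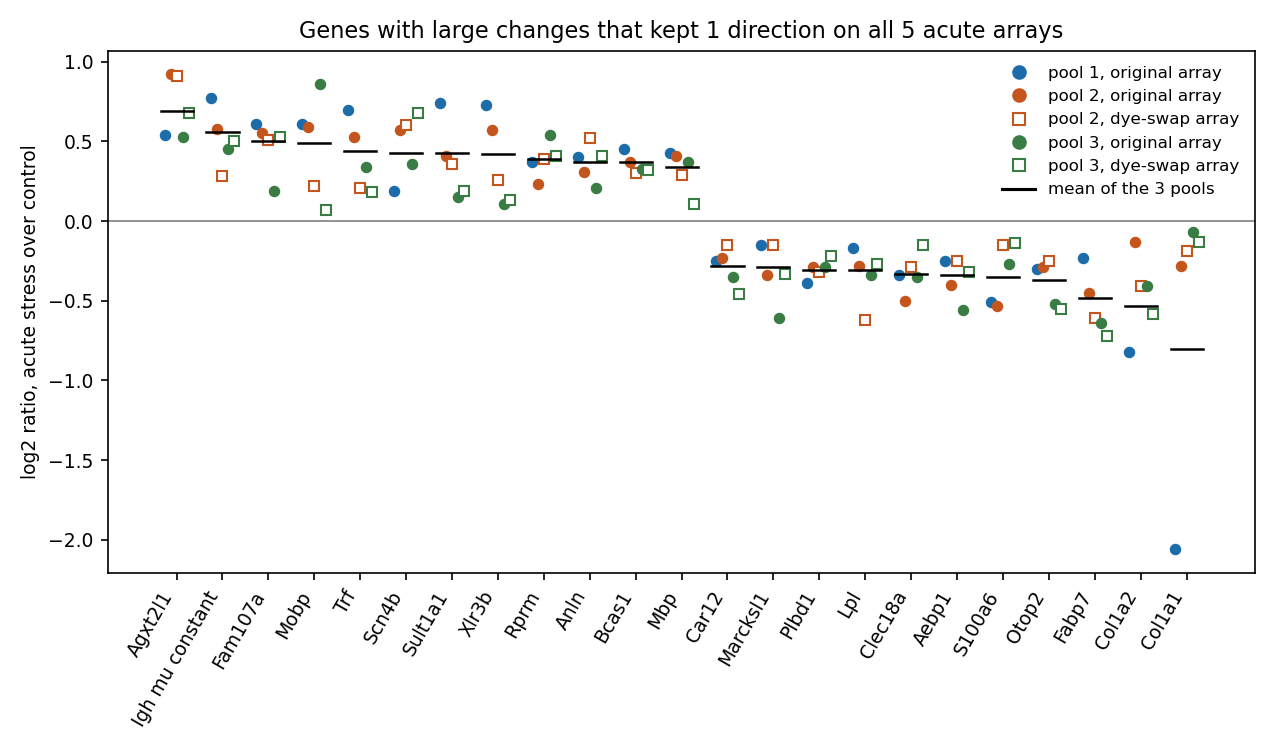
Log2 ratios of stress over control (y axis) on each of the 5 acute arrays for 1 called transcript and for 11 higher and 11 lower genes among those with the largest mean at an unadjusted p under 0.01 that kept 1 direction on every array; colours mark pools, open squares mark dye-swap arrays and black lines the mean of 3 pools. Agxt2l1 has the highest mean, 0.69, and the low mean of Col1a1, -0.80, comes from the pool 1 array at -2.06.

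Of the tested probes, 896 were higher and 850 lower on all 5 arrays, together 6.43% of probes, and 277 of these had an unadjusted p under 0.01, 161 higher and 116 lower. The largest mean among the higher ones belonged to Agxt2l1, now named Etnppl, which encodes an enzyme that breaks down phosphoethanolamine in astrocytes. It had log2 ratios of 0.54 in pool 1, 0.92 and 0.91 in pool 2, and 0.53 and 0.68 in pool 3, with a mean of 0.69 (SE 0.119, n = 3 pools, limma adjusted p = 0.0967). Its stress pools had log2 signals of 9.87, 10.34 and 9.79 and its control pools 9.33, 9.42 and 9.19, which do not overlap. The first Fam107a probe, of an actin-binding protein that glucocorticoids induce, had log2 ratios of 0.61, 0.55, 0.51, 0.19 and 0.53 on the 5 arrays and a mean of 0.50 (adjusted p = 0.0967). The second, brighter Fam107a probe had 0.19, -0.06 and 0.01 in the pools and a mean of 0.05 (adjusted p = 0.997). With the pool number as a block, the adjusted p was 0.0767 for Agxt2l1 and 0.0659 for the first Fam107a probe. By quantitative PCR on RNA of single mice, the study reported both genes as significantly higher after acute stress. Those mice included mice of the array pools and others. The 2 probes of Abpa, a secreted androgen-binding protein that the study also named for acute stress, were not well above background on any of the 5 arrays and were not tested.

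Further genes with the largest higher values were Scn4b, a sodium channel subunit, at 0.43, Sult1a1, a phenol sulfotransferase, at 0.43, and Xlr3b, an imprinted X-linked gene, at 0.42. Scn4b was weakest in pool 1, at 0.19, and lay between 0.36 and 0.68 on the other arrays. Sult1a1 and Xlr3b were strongest in pool 1, at 0.74 and 0.73, and lay at 0.17 and 0.12 in pool 3. The last genes of this set belong to oligodendrocytes or their myelin: Anln, an actin-binding anillin, at 0.37, Bcas1, a marker of myelinating oligodendrocytes, at 0.37, and 1 of 3 probes of Mbp, the myelin basic protein, at 0.34. None of these reached an adjusted p under 0.05, but Anln had 0.0212 with the pool number as a block. With that block the others stayed above 0.05: Bcas1 had 0.0747, this Mbp probe 0.164, Sult1a1 0.0744, Xlr3b 0.106 and Scn4b 0.216. Bcas1 varied least, with 0.45 in pool 1, 0.37 and 0.30 in pool 2, and 0.33 and 0.32 in pool 3.

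Among the lower genes of this set, Fabp7, the brain fatty acid-binding protein of radial glia and astrocytes, had log2 ratios of -0.23 in pool 1, -0.45 and -0.61 in pool 2, and -0.64 and -0.72 in pool 3, with a mean of -0.48 (adjusted p = 0.189). When pool 1 was left out at every time point, Fabp7 was called lower at -0.61 with an adjusted p of 0.0483, and with the pool number as a block its adjusted p was 0.00533. Plbd1, a phospholipase B-like gene, was the lower gene with the smallest p, at -0.31 (adjusted p = 0.0658, and 0.0403 with the block), with -0.39 in pool 1, -0.29 and -0.32 in pool 2 and -0.29 and -0.22 in pool 3. Otop2, of the otopetrin proton channels, was at -0.37 (adjusted p = 0.0821, and 0.0696 with the block), and Car12, a carbonic anhydrase, at -0.28 (adjusted p = 0.0967, and 0.0592 with the block). S100a6, Aebp1, Clec18a, Lpl and Marcksl1 lay between -0.35 and -0.29, with adjusted p of 0.108 to 0.43. With the pool number as a block it was 0.0482 for S100a6 and 0.0696 to 0.166 for the others. A second tested probe of Clec18a was at -0.12, with 0.06 in pool 1, and a second tested probe of Lpl was at -0.06. Col1a1 differed from these: its mean of -0.80 rested on -2.06 in pool 1, with -0.23 and -0.10 in the other pools.

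Most markers of mature oligodendrocytes were higher. Of 12 genes on the list, all tested, 8 were higher and 0 lower at an unadjusted p under 0.05, and 11 had a mean above 0. Among all 16518 genes tested with 1 probe each, 3.12% were higher and 3.06% were lower at that level. The median of the list was 0.19, against 0.00 for all genes, with 0.21, 0.15 and 0.17 in the pools and between 0.09 and 0.23 on the single arrays. One of the 12, Mobp, had an adjusted p under 0.05.

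Mag, a myelin-associated adhesion protein, was at 0.44 in pool 1, 0.33 and 0.48 in pool 2, and 0.02 and 0.31 in pool 3, with a mean of 0.34 (SE 0.0683, adjusted p = 0.203). Cnp, a phosphodiesterase of myelin, was at 0.52, 0.32, 0.10, 0.18 and 0.27 on the 5 arrays, with an adjusted p of 0.427, or 0.0327 with the pool number as a block. Both were above 0 on each array. With that block the adjusted p of Mag was 0.127. Cldn11, the tight junction protein of myelin, had a mean of 0.26, Aspa, an aspartoacylase, of 0.18, and Ugt8a, an enzyme of myelin lipids, of 0.17. The members that did not pass were Mbp on its brightest probe at 0.14, Mog at 0.04, Opalin at 0.03 and Ermn at -0.07. Probes of a gene did not always give 1 answer, since a dimmer Ermn probe was at 0.25, with 0.29, 0.20 and 0.25 in the pools. When the 20 arrays were fitted singly, blocked by slide, 6 of the 12 had an adjusted p under 0.05, among them Mobp, Cnp, Mag and Cldn11. But this fit counts both arrays of a pool as nearly separate samples, because the correlation it estimated between them was -0.0147. In this fit 88 of all 27162 probes were higher and 64 lower at that level, against 5 and 0 in the main fit. At an unadjusted p under 0.05 the count was 8 with pool 1 left out at every time point and 8 with the dye effect subtracted from pool 1. It was 1 when arrays were centred on their median in place of loess. Of all 27162 probes, 729 were higher at that p in the main fit and 887 with pool 1 left out. With the dye effect subtracted 750 were, and with median centring 26.

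Precursors of oligodendrocytes did not show the same count. Of 7 tested members 1 was higher, Olig1, a transcription factor of the lineage, at 0.21, and its pools lay at 0.50, 0.19 and -0.07. Sox10, which drives the lineage, was at 0.12 and Pdgfra, the growth factor receptor of the precursors, at -0.03. The median of the list was 0.04 and came from pool 1 at 0.23, with 0.005 and -0.025 in the other pools.

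**Figure D2:**
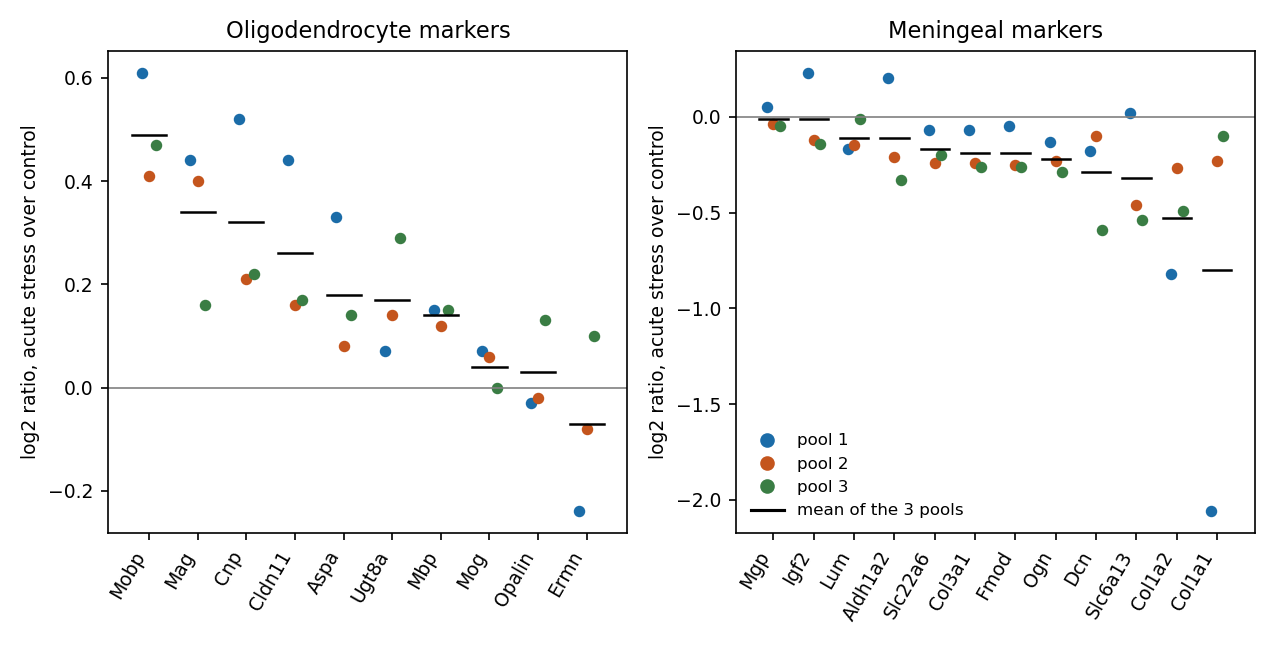
Log2 ratios of stress over control (y axis) in each of the 3 pools for 10 of the 12 oligodendrocyte markers (left) and the 12 meningeal markers (right), 1 probe per gene; black lines are the mean of the pools. Of the 10 oligodendrocyte markers shown 9 have a mean above 0, all meningeal markers have a mean below 0, and the scales of the panels differ.

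Sequence in front of the start sites of Mobp and Mag, the markers with the highest means, is shown because 8 of the 12 markers were higher and the factors that drive myelin genes have known letters. The 250 bases before the start come from RefSeq, build GRCm38.p6, and read 5′ to 3′ on the strand of the gene. Capitals mark ACAAAG, the core of Sox10 sites, and CTGGNAC, the core of Myrf sites, each searched on both strands, so that they also appear as CTTTGT and GTNCCAG.
Mobp, plus strand, chr9:120149492-120149741: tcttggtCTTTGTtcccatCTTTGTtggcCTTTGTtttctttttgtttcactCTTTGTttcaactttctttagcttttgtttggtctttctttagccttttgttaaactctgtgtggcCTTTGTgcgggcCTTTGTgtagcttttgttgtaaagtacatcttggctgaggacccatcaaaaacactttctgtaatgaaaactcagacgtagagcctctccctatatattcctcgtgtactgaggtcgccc
Mag, minus strand, first of 3 starts, chr7:30914923-30915172: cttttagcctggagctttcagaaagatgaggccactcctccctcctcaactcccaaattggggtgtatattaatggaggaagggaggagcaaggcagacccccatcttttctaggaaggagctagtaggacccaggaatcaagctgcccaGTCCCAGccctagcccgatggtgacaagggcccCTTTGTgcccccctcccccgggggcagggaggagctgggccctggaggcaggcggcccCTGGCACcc
The Mobp stretch held 6 matches to the Sox10 core and 0 to the Myrf core, and the Mag stretch held 1 and 2. Of the 12 oligodendrocyte markers 9 had an entry, and 4 of these, Mobp, Mag, Cnp and Opalin, held the Sox10 core, which 18.6% of 27025 genes hold in such a stretch. The Myrf core was in Mag, Cnp and Mog, 3 of the 9, and in 17.9% of all genes. Opalin and Mog, at 0.03 and 0.04, hold a core and did not pass the test. A match describes the letters and not binding.

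Meningeal markers lay below 0. All 12 had a mean below 0, 7 were lower and 0 higher at an unadjusted p under 0.05, against 3.06% of all genes lower, and 0 of the 12 had an adjusted p under 0.05. The median of the list was -0.19, with -0.07 in pool 1, -0.23 in pool 2 and -0.26 in pool 3. Col1a2, a chain of fibrous collagen, had log2 ratios of -0.82, -0.13, -0.41, -0.41 and -0.58 on the 5 arrays and a mean of -0.53 (SE 0.104, adjusted p = 0.189). Ogn, a small proteoglycan, had -0.13, -0.23, -0.23, -0.47 and -0.10 and a mean of -0.22 (adjusted p = 0.339). Both were below 0 on every array. With the pool number as a block the adjusted p was 0.161 for Col1a2 and 0.164 for Ogn.

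Slc6a13, a GABA and taurine transporter of the meninges, was at 0.02 in pool 1 and between -0.58 and -0.44 on the 4 arrays of the other pools, and Slc22a6, an organic anion transporter, had a mean of -0.17. Col3a1 had a mean of -0.19 and Dcn, the proteoglycan decorin, of -0.29. Mgp, an inhibitor of vessel calcification, and Igf2 were both at -0.01. The count of 7 fell to 4 without pool 2 and 3 without pool 3 and was 9 when pool 1 was left out at every time point, and it was 0 with median centring in place of loess. Of all 27162 probes, 738 were lower at that p in the main fit, 560 without acute pool 2 and 828 without acute pool 3. With pool 1 left out at every time point 1235 were lower, and with median centring 9. How much meninges each slice carried was not measured, and its part in these values was not tested.

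**Figure D3:**
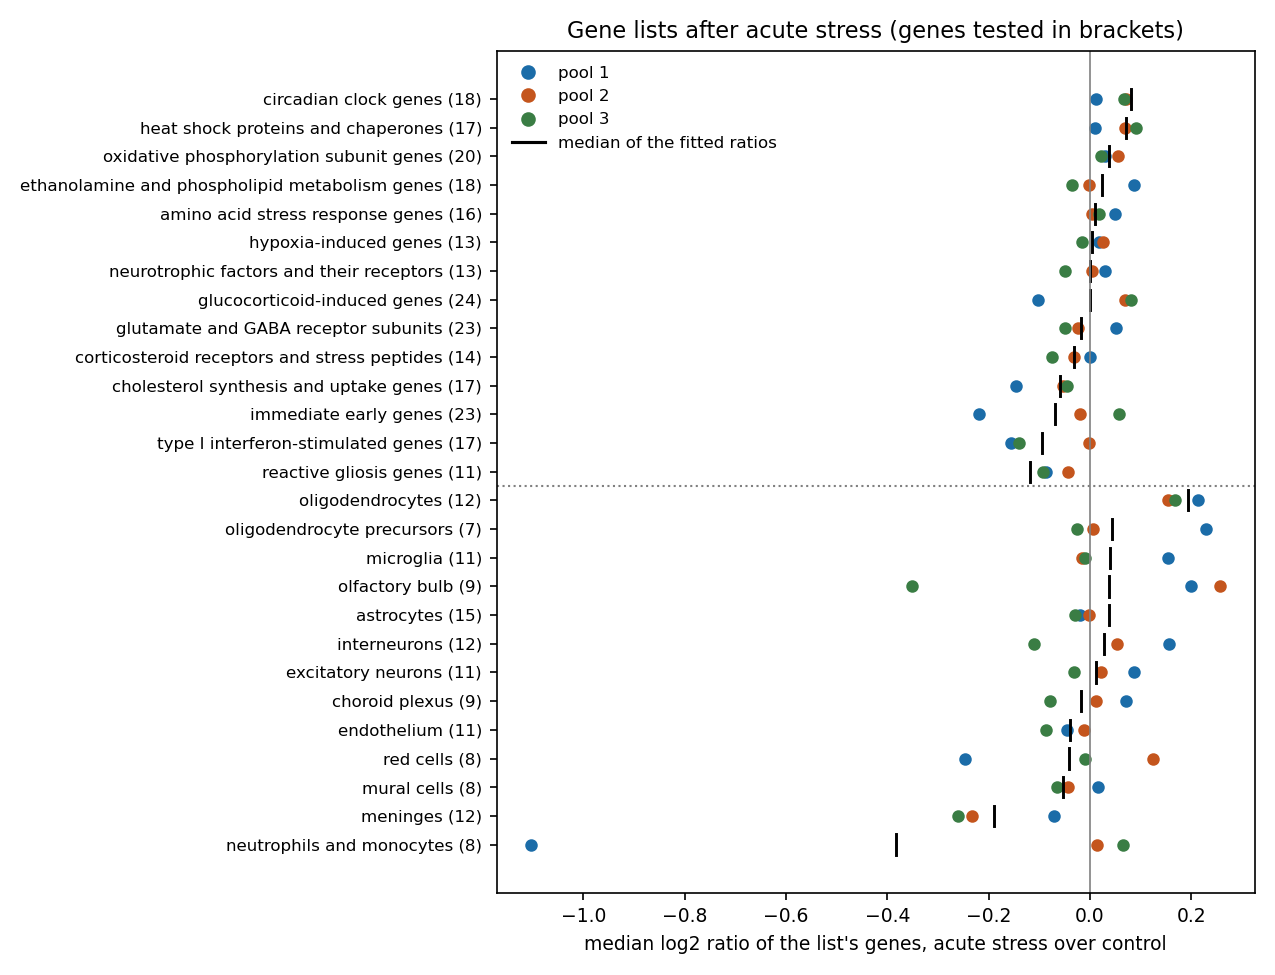
Median log2 ratio of stress over control (x axis) of each gene list in pools 1, 2 and 3 (points) and over the fitted ratios (black ticks), with cell types below the dotted line and responses above it; numbers in brackets are genes tested. The oligodendrocyte list lies above 0 and the meningeal list below 0 in every pool, whereas the neutrophil and monocyte list lies at -1.10 in pool 1 and near 0 in the other pools.

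The remaining lists were counted at the same unadjusted p, at which 3.12% of all genes were higher and 3.06% lower, so that 1 member of a list of this size is near the share of all genes. Of 24 tested genes that glucocorticoids induce, 4 were higher and 2 lower, 0 had an adjusted p under 0.05, and the median was 0.00, with -0.10 in pool 1 and 0.07 and 0.08 in the others. With pool 1 left out at every time point 6 were higher and 1 lower. In that fit 887 of all 27162 probes were higher and 1235 lower, against 729 and 738 in the main fit. Fam107a enters this list by its brighter probe, at 0.05, and not by the probe at 0.50. The higher ones were Sult1a1 at 0.43, Mt1 and Mt2, the metallothioneins that bind zinc, at 0.35 and 0.28, and Plin4, a lipid droplet protein, at 0.28 (adjusted p 0.327 to 0.617). Mt1 had 0.57 and 0.03 in pool 2 and 0.72 and -0.37 in pool 3, so that its arrays crossed 0 with the dye. Plin4 was above 0 on each array, with 0.28 in pool 1, 0.26 and 0.51 in pool 2 and 0.14 and 0.21 in pool 3. The lower ones were Cdkn1a, the cell cycle inhibitor p21, at -0.26 and Gadd45g, a gene of growth arrest, at -0.15. Sgk1, a classic target kinase, lay at 0.14 and Klf15 at 0.12, neither with an unadjusted p under 0.05. Receptors of corticosteroids and stress peptides gave 0 higher and 1 lower of 14 tested, the lower one being Crhr2, a receptor of urocortins, at -0.10, and the gene of the stress peptide Crh lay at -0.12 (adjusted p = 0.997).

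Of 18 clock genes 5 were higher and 1 lower, where 3.12% and 3.06% of all genes were, with a list median of 0.08 and 0.01, 0.07 and 0.07 in the pools. Dbp, an output gene of the clock, was at 0.12 in pool 1, 0.39 and 0.41 in pool 2, and 0.27 and 0.32 in pool 3, with a mean of 0.27 (adjusted p = 0.395). It was above 0 on each array. Hlf, which is related to Dbp, was at 0.21 and Per3, a period gene, at 0.14, and the others that passed were Bhlhe41, a repressor, at 0.15 and Gm129, now named Ciart, at 0.19. Arntl, the activator of the clock, was lower at -0.21, with -0.03, -0.24 and -0.35 in the pools. No member had an adjusted p under 0.05, and the hour of killing was not given in the sources used here.

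Against the same shares of all genes, 3.12% higher and 3.06% lower, immediate early genes gave 2 higher and 3 lower of 23 tested, with Nr4a2, an orphan nuclear receptor, at 0.26 and Fosb at 0.11 among the higher, and Bdnf, a neurotrophin, at -0.12 among the lower. Nr4a2 was steady over arrays, with 0.25 in pool 1, 0.24 and 0.36 in pool 2 and 0.25 and 0.22 in pool 3. Genes of cholesterol synthesis and uptake gave 0 higher and 4 lower of 17, among them Hmgcs1, the synthase at the start of the pathway, at -0.24, Fdps at -0.15 and Sqle at -0.18. On the dye-swap array of pool 3 these 3 lay above 0, at 0.20, 0.09 and 0.13, and 0 of the 17 were lower on all 5 arrays. The list median was -0.14 on the original array of pool 3 and 0.09 on its dye swap. After 8 days Hmgcs1, Fdps and Sqle lay at -0.23, -0.17 and -0.22. Reactive gliosis genes gave 1 higher and 4 lower of 11, with the small heat shock protein Hspb1 at 0.21 and the chemokine Cxcl10 at -0.61. Cxcl10 had -0.21, -0.72 and -0.89 in the pools and an adjusted p of 0.713.

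Among heat shock proteins and chaperones 2 of 17 were higher, Hspb1 and the lens crystallin Cryab at 0.23, and 0 were lower, while 6 were higher with pool 1 left out at every time point. In that fit 887 of all 27162 probes were higher, against 729 in the main fit. The amino acid stress response gave 2 higher of 16, Slc7a5, a transporter of large amino acids, at 0.16 and Chac1 at 0.09, and hypoxia-induced genes gave 2 higher of 13, P4ha1 at 0.17 and Egln3 at 0.11. In the ethanolamine and phospholipid list of 18, Agxt2l1 was higher and Etnk2, an ethanolamine kinase, was lower at -0.26 (adjusted p = 0.189), with -0.08, -0.32 and -0.37 in the pools. Interferon-stimulated genes gave 1 lower of 17, Cxcl10, neurotrophic factors and receptors 1 lower of 13, Bdnf, and glutamate and GABA receptor subunits 1 lower of 23, Gria1, an AMPA receptor subunit, at -0.34. Oxidative phosphorylation genes gave 0 of 20 in either direction.

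Markers of cortical cells were measured, as the label of prefrontal cortex requires: 11 of 12 excitatory neuron markers, 12 of 12 interneuron markers and 15 of 15 astrocyte markers were well above background on each array, and few passed the test. Of the excitatory markers 2 were higher, the transcription factors Tbr1 at 0.21 and Bcl11b at 0.22, and 1 was lower, Cux2 of upper layers at -0.13. Of interneuron markers 2 were higher, the calcium-binding parvalbumin gene Pvalb at 0.28 and the vesicular transporter Slc32a1 at 0.14. Astrocytes gave 1 higher of 15, Aldoc, a glycolytic aldolase, at 0.24, and 1 lower, the water channel Aqp4 at -0.25. Gfap of astrocytes was split by pool, at 0.33, -0.36 and -0.68.

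In the next lists 1 member or none passed, near the 3.06% of all genes that were lower. Microglia gave 1 lower of 11, P2ry12, a purine receptor, at -0.15, endothelium 1 lower of 11, Cldn5 of tight junctions at -0.17, and mural cells 1 lower of 8, Tagln of smooth muscle at -0.17. Choroid plexus gave 1 lower of 9, the water channel Aqp1 at -0.29, which was -0.80 in pool 1. Red cell genes gave 0 of 8, and their list median was -0.25 in pool 1, 0.12 in pool 2 and -0.01 in pool 3. Genes of the olfactory bulb, which lies next to the slice, gave 0 of 9, with medians by pool of 0.20, 0.26 and -0.35.

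Genes of neutrophils and monocytes showed that pool 1 stood apart. S100a8 and S100a9, which form the calprotectin of neutrophils, were at -3.67 and -3.87 in pool 1, at 0.03 and 0.24 in pool 2 and at 0.39 and 0.65 in pool 3. Camp, an antimicrobial peptide, was at -3.37, -0.04 and 0.21 in the pools and Mpo, myeloperoxidase, at -2.08, -0.01 and 0.14. Thus the control side of pool 1 carried more of these RNAs than the stress side, and Camp was the 1 member of 8 that passed, while 4 of the 12 on the list were not well above background on every array. In the same pool Col1a1 was at -2.06 and Egr2, an immediate early gene, at -1.13, and how these are related was not tested.

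The values after acute stress were set against the mean of the 3 later groups, which had other stressed mice and other controls. This contrast called 2 of 27162 probes, or 0.00736%, both higher after acute stress. For Mobp the difference was 0.55 (SE 0.061, limma adjusted p = 0.0106): after 8 days the pools lay at 0.12, 0.18 and 0.02, after 13 days at -0.16, -0.31 and -0.16, and after rest at 0.00, -0.17 and -0.04. All 9 later pools lay below the lowest acute pool, at 0.41. For ENSMUST00000103426 the difference was 0.63 (SE 0.0708, adjusted p = 0.0106), and its 9 later pools lay between -0.26 and 0.07. Both probes were picked by this contrast, so the separation of their pools is no further support. Neither difference was called without acute pool 1 or without acute pool 3, where the lowest adjusted p of all probes was 0.0638 and 0.0883.

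For other genes, chosen for large acute values, the difference did not pass, and lower values in the later groups are no result about them. Agxt2l1 was at -0.08, -0.01 and -0.12 in the later groups (difference 0.76, adjusted p = 0.165), Rprm at 0.04, 0.07 and -0.06 (difference 0.37, adjusted p = 0.159), and Fabp7 at 0.07, -0.04 and 0.16 (difference -0.54, adjusted p = 0.169). The first probe of Fam107a was at 0.21, 0.18 and -0.08 (difference 0.40, adjusted p = 0.304). Others lay near their acute value at 13 days, with Otop2 at -0.32 against -0.37 and Xlr3b at 0.33 against 0.42.

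Among the 12 oligodendrocyte markers, 7 had a positive difference at an unadjusted p under 0.05, where 2.95% of all genes did, and 0 had a negative one. The pool medians of the list ran from -0.14 to 0.11 in the later groups, below the 0.15 to 0.21 of the acute pools. Of the 12 meningeal markers, 8 had a negative difference, where 2.77% of all genes did, and 0 had a positive one. One of these 8, Mgp, was at -0.01 after acute stress and at 0.66 and 0.81 after 8 and 13 days, so its difference came from the later groups. The pool medians of the meningeal list ran from -0.07 to 0.38 in the later groups, and acute pool 1, at -0.07, was level with the lowest of them. Red cell genes also set the groups apart, with pool medians of 0.49 to 0.77 after 8 days and 1.10 to 1.55 after 13 days, so that 7 of 8 had a negative difference, and their part in the other differences was not tested.

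**Figure D4:**
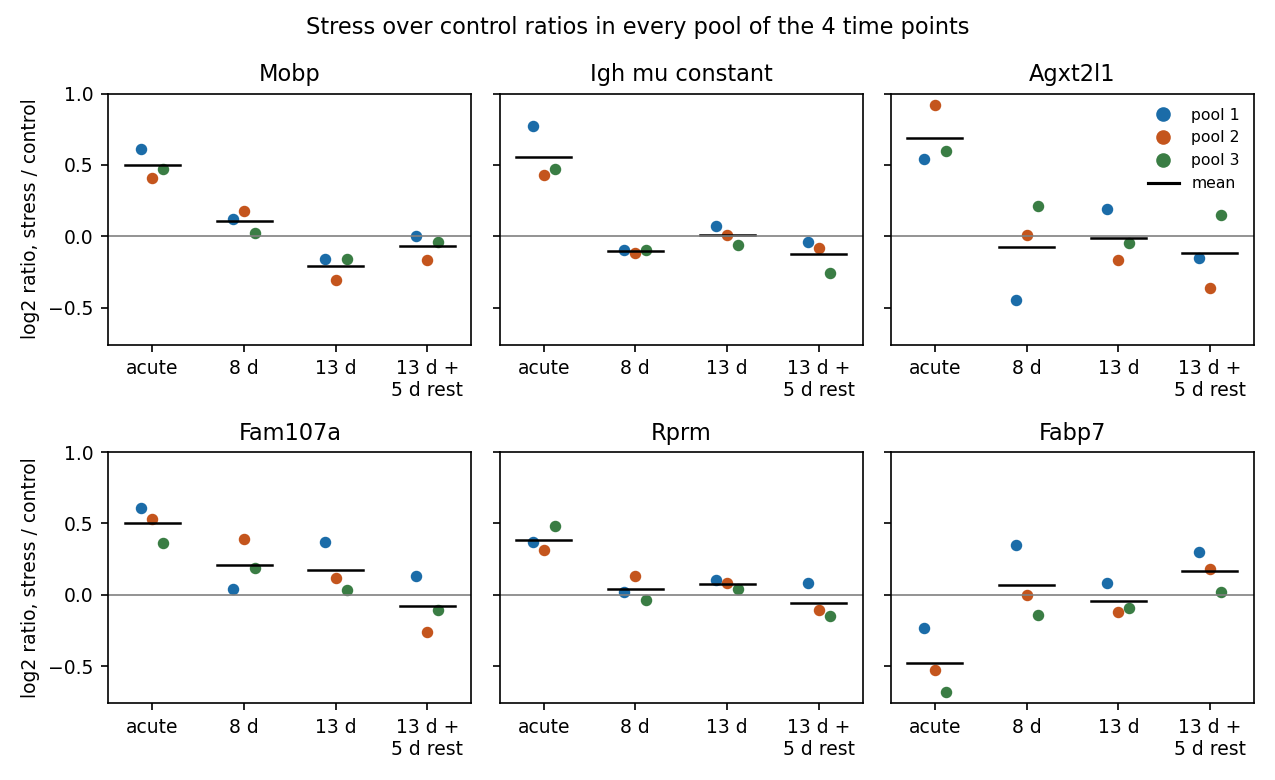
Log2 ratios of stress over control (y axis) in each pool of the 4 time points (x axis, days of stress; d, days) for 6 of the genes that led after acute stress, with the first probe of Fam107a; black lines are means of 3 pools. The acute pools of Mobp, 0.41 to 0.61, and of the immunoglobulin mu transcript, 0.43 to 0.77, lie above all 9 later pools.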

How the data were processed

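Two-colour Agilent mouse 4x44K v2 arrays were deposited by the authors as Feature Extraction output, from which the mean and background spot intensities were used. The authors' deposited value table (log2 ratios) and the deposited log10 ratios of Feature Extraction served as alternatives. Groups, dyes and pools were taken from the labels, which gave the direction of every ratio. RNA of 3 mice per pool came from the mice with the highest yield of each group. Intensities were background-corrected by normexp (offset 50), normalized by loess and Aquantile in limma 3.58.1 (R 4.3.3), control and outlier spots were left out, spots of a probe and arrays of a pool were averaged, and limma (lmFit, eBayes, Benjamini-Hochberg) was fitted to 12 pools with 1 coefficient per time point. The p-values measure the spread between 3 pools per time point. Of 39429 probes 31423 were named through RefSeq tables. The precision is limited by 5 arrays. The fit was tested on simulated data. Lists (14 responses, 13 cell types; brightest probe per gene) were counted at an unadjusted p under 0.05 with no set test. Genes named were all called probes, up to 12 higher and 12 lower genes at an unadjusted p under 0.01 with 1 direction on 5 arrays, 4 genes named by the study, the members of each list with the lowest p (4 per response, 2 per cell type) and the probes called against the later groups, and others named were chosen after their values were seen. Some genes that these rules name, 1 called probe among them, are not reported here. The time point, members, lists and tests were chosen with earlier results of these data known. Alternatives were 19 settings of filter, background correction, normalization, dye, slide, pools and test.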

Additional observations from a re-analysis of the deposited data

Results flagged for a closer look

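The contrast of acute stress with the 3 later groups passed its own test for 2 transcripts. The log2 ratio of Mobp was higher by 0.55 (SE 0.061, limma adjusted p = 0.0106), with all 3 acute pools above all 9 later pools. That of ENSMUST00000103426, the immunoglobulin heavy constant mu transcript, was higher by 0.63 (SE 0.0708, adjusted p = 0.0106), again in 3 of 3 acute pools. Both were picked by this contrast, so the separation of their pools is no further support. Without acute pool 1, and without acute pool 3, this contrast called 0 probes, with lowest adjusted p of 0.0638 and 0.0883. On the dye-swap arrays Mobp lay at 0.22 and 0.07, against 0.59 and 0.86 on the original arrays of the same pools, and with the dye effect subtracted from pool 1 its log2 ratio after acute stress was 0.45 (adjusted p = 0.00433).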

How the results depend on the processing

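The 2 calls after acute stress depended on the processing. Of 1917 values of named genes under an alternative, 30 changed direction. Most of these genes were picked for 1 direction or a low p on the same arrays. Few changes were thus built in, and the count does not measure how firm the directions are. The number of called probes was 1 over all probes, 0 with median centring in place of loess, 0 with the 3 acute pools alone, 1 (lower, Fabp7) with pool 1 left out at every time point, 4 with the dye as a term, 6 with the slide as a block, 1 with a trended and robust prior, and 73 with original arrays only, and 0 to 2 when 1 acute pool was left out. At an unadjusted p under 0.05 it was 1467 probes, 35 with median centring (74.3% higher, against 49.7%), 2724 with the slide as a block and 4985 with original arrays only, and 1002 to 1882 without 1 acute pool. Feature Extraction's own ratios gave 58.7% higher. Against the later groups it was 0 with median centring, 0 with pool 1 left out at every time point, 0 with the trended and robust prior, 11 with the dye as a term and 11 with the slide as a block, and 0 to 2 without 1 acute pool. The cause was not tested. The slide and dye fits use 20 arrays and allow for a correlation between arrays of a pool. It was estimated at -0.0147 in the slide fit and -0.0404 in the dye fit, so the arrays count as nearly separate samples.

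With the pool number as a replicate block, 2 probes were called after acute stress, 2680 passed the unadjusted p, and 5 were called against the later groups, 2 higher and 3 lower. The number goes with slide and scan day at every time point. Deviations of pools with the same number correlated at -0.172 to 0.539 (median 0.286), and those with different numbers had a median of -0.0937. No source ties a number to litters, and not every same-number correlation was above 0.1, so the block was kept as an alternative.

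Median centring turned Phgdh (0.07), Cebpb (0.02), Fdps (0.02), Crhr1 (0.05), Adcyap1 (0.02), Crh (0.01), Kdr (0.07), Sgpl1 (0.07), Grin2c (0.04), Gabrd (0.08), Gabra2 (0.01), Dnajb5 (0.03), Nptx2 (0.01), Bdnf (0.01), Acta2 (0.00), Vgf (0.10), Ntrk3 (0.05) and Vim (0.03) from below 0, and it moved the median of all probes to 0.08. Original arrays only turned Kdr (0.00) and Adm (0.03). Without pool 1, in the acute group or at every time point, the second Fam107a probe was at -0.02, Camp at 0.08, Mpo at 0.06 and Slc4a1 at 0.11. Leaving out 1 acute pool in turn gave -0.02 to 0.10 for this probe, -1.71 to 0.08 for Camp, -1.05 to 0.06 for Mpo, -0.50 to 0.11 for Slc4a1, -0.06 (without pool 2) to 0.46 for Doc2g and -0.20 to 0.00 (without pool 3) for Acta2. The list counts under each setting and the B cell list were added after seeing the data. Probes near background on these arrays give compressed ratios, which limits what low genes can show.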
